A study of Homo sapiens with 6 samples.

Results

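The RNA levels of 10 genes that switch off signalling by G-protein-coupled receptors were followed in 6 RNA-seq libraries. The genes are the receptor kinases ADRBK1, ADRBK2, GRK4, GRK5 and GRK6, the arrestins ARRB1 and ARRB2, and the regulators of G protein signalling RGS2, RGS4 and RGS5. They were chosen by name, and all 10 were found among the 57341 named genes of the count table. ADRBK1 and ADRBK2 are the older symbols of GRK2 and GRK3. The study compared parental H295R cells, a line from an adrenocortical carcinoma (labelled WT, 3 libraries), with H295R-PM-Ptc+ cells (labelled PTC, 3 libraries), a subpopulation of the same line. The PTC cells were stained for the Hedgehog receptor Ptch1 at the cell surface, sorted by flow cytometry and grown on. Both groups were untreated and kept in the same serum-supplemented medium. The model is 1 cell line and 1 sorted population of it, and nothing in the labels says that replicates were separate sorts or cultures, so a p-value here measures the spread between these libraries, which may be technical.

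When a hormone binds a G-protein-coupled receptor, the receptor makes a G protein alpha subunit exchange GDP for GTP, and the alpha subunit and the beta-gamma pair pass the signal on. Receptor kinases phosphorylate the active receptor, arrestins then bind it, block further G protein coupling and lead it to endocytosis, and RGS proteins speed GTP hydrolysis by the alpha subunit. In the adrenal cortex, receptors of this class include those for ACTH and angiotensin II, which drive steroid synthesis.

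Between 23264403 and 25813247 fragments per library fell on genes. PTCH1, the gene the PTC cells were sorted for, went against the group names, with 441, 559 and 579 counts in the libraries labelled WT and 248, 326 and 319 in those labelled PTC (log2 fold change -0.81, standard error 0.15, adjusted p = 0.0207). The 2 group names of the deposited columns are also exchanged relative to the columns of the study's own table of normalised values. The counts alone do not settle the names, so the libraries are called WT-labelled and PTC-labelled throughout, and every direction rests on those labels and turns round if the names are exchanged. Of 12 adrenocortical markers 11 had enough counts to be tested, led by NR5A1, the nuclear receptor of steroidogenic cells, with 359 CPM on average (counts-per-million, the count scaled to library size), while CYP11B1 had at most 3 counts in any library. CYP21A2, a steroid hydroxylase, was the only marker of that list to pass the test on the group alone (log2 fold change 0.88, adjusted p = 0.00670). With the replicate number as a block (a term for replicates that share a number), STAR, the cholesterol transporter, was also called higher (0.41, adjusted p = 3.91e-06) and CYP11A1, the side-chain cleavage enzyme, lower (-0.24, adjusted p = 0.00100).

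GRK5 was lower and RGS5 higher in the PTC-labelled libraries. Of the other 7 tested genes none passed an adjusted p of 0.05 in the test on the group alone. RGS4 had too few counts to be tested. So 2 of 9 tested genes were called, against 3.73% of all 16710 tested genes (1.32% lower and 2.42% higher). The groups did not overlap in CPM in these 2 of the 9, against 23.5% of all tested genes, which is near the share among the 9. An unadjusted p under 0.05 was reached by the same 2 genes, against 17.3% of all tested genes. DESeq2 also called 2 of the set, GRK5 and RGS5, against 4.56% of the genes it tested (2.81% higher and 1.75% lower). The cells were sequenced in bulk, so fewer expressing cells and less RNA per cell cannot be told apart.

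**Figure D1:**
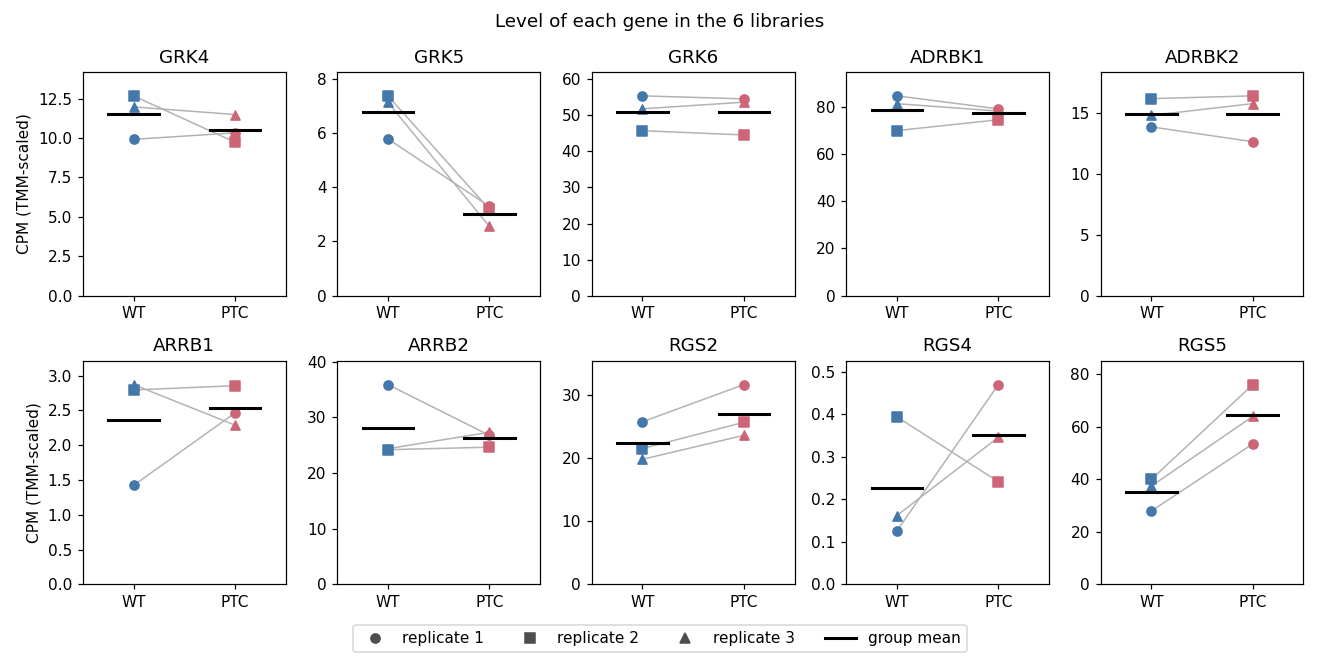
CPM (counts scaled to library size by TMM) of each of the 10 genes in the 3 WT-labelled and 3 PTC-labelled libraries, with 1 point per library, gray lines between libraries of the same replicate number and black bars for group means. The groups stand apart for GRK5 and RGS5 and overlap for the other 8 genes.

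GRK5 encodes a membrane-associated receptor kinase of the GRK4 subfamily. It lies on the forward strand of chromosome 10 from 119207589 to 119459742 (GRCh38), with 16 exon intervals in the authors' annotation. The WT-labelled libraries held 138, 187 and 176 counts of it (5.78, 7.36 and 7.12 CPM) and the PTC-labelled libraries 84, 79 and 59 (3.29, 3.18 and 2.55 CPM). Each WT-labelled library was above each PTC-labelled one. The means were 6.75 ± 0.855 and 3.00 ± 0.398 CPM (SD, n = 3 each). GRK5 was thus 2.24-fold lower in the PTC-labelled libraries (log2 fold change -1.17, 95% confidence interval -1.53 to -0.80, adjusted p = 0.00514), the same direction as PTCH1, and higher there if the group names are exchanged. An exact permutation test of the CPM gave a two-sided p of 0.1, and no smaller p is possible with 3 libraries in each group. Ranked by size of difference, GRK5 was number 57 of the 220 genes called lower.

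RGS5 encodes a small RGS protein that acts on Gi and Gq alpha subunits and is widely used as a marker of pericytes. It lies on the reverse strand of chromosome 1 from 163111121 to 163321894 (GRCh38). The WT-labelled libraries held 668, 1016 and 926 counts (28.0, 40.0 and 37.5 CPM) and the PTC-labelled libraries 1369, 1893 and 1482 (53.6, 76.1 and 64.0 CPM). Every PTC-labelled library was above every WT-labelled one, and replicate 1 was the lowest of its group in both. The log2 fold change was 0.88 (95% confidence interval 0.52 to 1.23, adjusted p = 0.0194), or 1.84-fold higher, at 35.1 ± 6.35 against 64.6 ± 11.3 CPM (SD, n = 3 each, exact permutation p = 0.1). RGS5 was number 222 of the 404 genes called higher. Its adjusted p rose to 0.0695 without WT replicate 3, 0.0694 without PTC replicate 2 and 0.0737 without PTC replicate 3. Over the 6 fits that omit 1 library, its log2 fold change ranged from 0.74 to 0.99.

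The sequences around the start sites of these 2 genes are shown because they were the genes of the set that differed between the groups. Each run holds 300 bases around a RefSeq start (GRCh38.p14), most of them upstream, on the gene's own strand. RGS5 has 2 RefSeq starts, an upstream one and one inside the gene, and the counts add up transcripts from both. Capitals mark matches on either strand to GGGCGG (an SP1 site) or CCAAT.
GRK5, chr10:119207321-119207620, forward strand: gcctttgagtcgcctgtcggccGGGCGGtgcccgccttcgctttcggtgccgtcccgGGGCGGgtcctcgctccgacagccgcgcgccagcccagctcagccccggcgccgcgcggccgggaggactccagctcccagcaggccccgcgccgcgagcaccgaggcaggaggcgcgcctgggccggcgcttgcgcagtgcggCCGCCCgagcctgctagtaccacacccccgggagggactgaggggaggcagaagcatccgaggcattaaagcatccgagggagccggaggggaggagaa
RGS5 upstream start, chr1:163321686-163321985, reverse strand: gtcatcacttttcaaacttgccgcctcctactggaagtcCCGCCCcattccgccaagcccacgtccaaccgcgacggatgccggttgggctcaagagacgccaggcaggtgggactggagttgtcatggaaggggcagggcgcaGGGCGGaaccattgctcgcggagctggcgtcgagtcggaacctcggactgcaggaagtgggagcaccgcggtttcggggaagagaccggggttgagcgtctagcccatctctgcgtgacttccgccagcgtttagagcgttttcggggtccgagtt
RGS5 internal start, chr1:163202867-163203166, reverse strand: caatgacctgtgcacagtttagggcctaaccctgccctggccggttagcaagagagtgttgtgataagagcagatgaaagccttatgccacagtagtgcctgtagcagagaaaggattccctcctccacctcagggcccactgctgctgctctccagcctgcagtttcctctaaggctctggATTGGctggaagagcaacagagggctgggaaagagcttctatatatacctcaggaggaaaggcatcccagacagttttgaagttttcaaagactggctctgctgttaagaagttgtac
GRK5 had 3 matches to GGGCGG and a GC content of 75%, and the upstream RGS5 start 2 matches and 63%, where the median of 35116 RefSeq promoters was 58.7% and 45.0% of them held GGGCGG. The internal RGS5 start had 1 match to CCAAT, which 34.6% of all promoters held, and a GC content of 51%. Neither gene had a match to GACCACCCA (GLI factors, 0.236% of promoters), AAGGTCA (SF-1, 3.92%), TGACGTCA (the cAMP response element, 1.85%), TGANTCA (AP-1, 7.71%) or TATAAA (11.5%) in these windows. A match is a run of letters, and the absence of one says nothing about the factor.

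The other 4 kinases differed little between the groups. ADRBK1 encodes the ubiquitous receptor kinase that Gbeta-gamma recruits to the membrane. It had 2021, 1775 and 2009 counts in the WT-labelled and 2021, 1851 and 1809 in the PTC-labelled libraries, and these overlapped (log2 fold change -0.02, 95% confidence interval -0.22 to 0.17). ADRBK2, its closest relative, had 332, 412 and 367 against 324, 409 and 366 counts (log2 fold change -0.002, interval -0.28 to 0.27). Scaled to library size, the log2 ratios of its same-numbered replicates were -0.13, 0.02 and 0.09. GRK6, which like GRK5 is held at the membrane but by a lipid anchor, had 1324, 1162 and 1281 against 1395, 1108 and 1242 counts (log2 fold change -0.002, interval -0.24 to 0.24). Replicate 2 had the fewest GRK6 counts in both groups. GRK4, known mainly from testis and kidney, had 237, 322 and 296 against 264, 242 and 266 counts (log2 fold change -0.13, interval -0.42 to 0.15). The widest of these intervals, that of GRK4, reaches from 0.749 to 1.11 as a fold, so a difference as large as that of GRK5 lies outside the intervals of all 4.

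Set against the other kinases, GRK5 was a small share of the kinase RNA. Per exon length (FPKM, fragments scaled to exon length and library size), GRK5 held 2.76%, 3.97% and 3.48% of the summed FPKM of the 5 kinases in the WT-labelled libraries and 1.65%, 1.77% and 1.27% in the PTC-labelled ones. The groups did not overlap (exact permutation p = 0.1). ADRBK1 and GRK6 held most of the rest, at 41.3 ± 1.51% and 41.0 ± 1.51% in the WT-labelled and 42.1 ± 1.24% and 42.3 ± 2.24% in the PTC-labelled libraries (SD, n = 3 each), and their groups overlapped. The sum itself was 28.5 ± 1.79 and 27.6 ± 1.61 FPKM, with overlap between the groups (exact permutation p = 0.5).

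Of the arrestins, ARRB2 (beta-arrestin 2) was the more abundant. It had 858, 615 and 603 counts in the WT-labelled and 685, 613 and 633 in the PTC-labelled libraries, and WT replicate 1 stood above the other 5. The log2 fold change was -0.10 (95% confidence interval -0.44 to 0.24), and it turned to 0.11 without that library. ARRB1 (beta-arrestin 1) had 34, 71 and 71 against 63, 71 and 53 counts, with WT replicate 1 the lowest (log2 fold change 0.10, interval -0.49 to 0.68, and -0.16 without WT replicate 1). ARRB1 was 6.32 ± 2.98% of the summed FPKM of both arrestins in the WT-labelled and 6.79 ± 1.08% in the PTC-labelled libraries (SD, n = 3 each). The groups overlapped, and in WT replicate 1 the share was 2.89%.

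RGS2 encodes an inhibitor that is selective for Gq and is itself induced by hormones that raise cAMP or calcium. The WT-labelled libraries held 617, 548 and 491 counts (25.8, 21.6 and 19.9 CPM) and the PTC-labelled ones 811, 640 and 548 (31.7, 25.7 and 23.7 CPM). The groups overlapped, but in each pair of same-numbered replicates the PTC-labelled library was higher, by 0.30, 0.25 and 0.25 on the log2 scale. The test on the group alone gave a log2 fold change of 0.27 (95% confidence interval -0.03 to 0.58, adjusted p = 0.349), or 1.21-fold. With the replicate number as a block it was 0.27 (interval 0.13 to 0.40, adjusted p = 0.00599), which passed. In that blocked fit 3 of the 9 genes were called, GRK5, RGS5 and RGS2, against 22.5% of all tested genes (12.1% higher and 10.4% lower). RGS4, the neighbour of RGS5 on chromosome 1 (163068775 to 163076802, forward strand), had 3, 10 and 4 against 12, 6 and 8 counts, and the groups overlapped. Without a filter on low counts its log2 fold change was 0.61 (interval -0.44 to 1.66, adjusted p = 0.699), so no difference was detected.

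**Figure D2:**
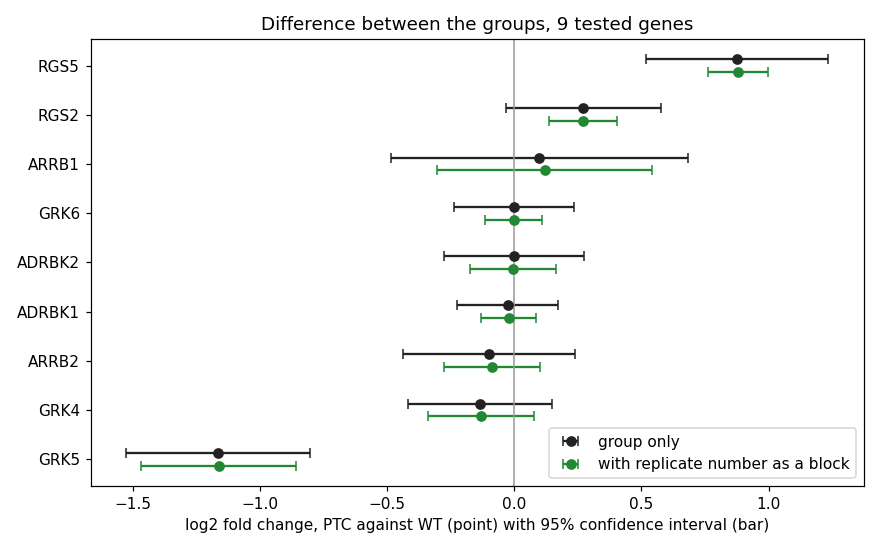
Log2 fold change of the 9 tested genes, PTC-labelled against WT-labelled libraries (points) with 95% confidence intervals (bars), from the fit on the group alone (black) and with the replicate number as a block (green). GRK5 (-1.17) and RGS5 (0.88) lie away from 0 in both fits, RGS2 (0.27) does so with the block, and the intervals of the other 6 genes cross 0 in both.

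Per exon length, RGS2, GRK6 and ADRBK1 had the highest levels, at 11.8, 11.7 and 11.7 FPKM over the 6 libraries, and their ranges overlapped. ARRB2 followed at 6.23 FPKM (range 5.54 to 8.21) and RGS5 at 5.03 (range 2.82 to 7.68), and these 2 ranges overlapped as well. GRK4 (2.35 FPKM) and ADRBK2 (1.61) came next, each above the following gene in all 6 libraries. GRK5 (0.697) and ARRB1 (0.420) overlapped in range, and RGS4 was lowest at 0.0599 FPKM. In the WT-labelled libraries ARRB2 (6.44 ± 1.53 FPKM) was above RGS5 (3.54 ± 0.640) in all 3, and in the PTC-labelled ones RGS5 (6.51 ± 1.14) and ARRB2 (6.01 ± 0.325) overlapped in range (SD, n = 3 each). GRK5 (0.965 ± 0.122 FPKM) was likewise above ARRB1 (0.406 ± 0.140) in the 3 WT-labelled libraries, and in the PTC-labelled ones they overlapped, at 0.429 ± 0.0569 and 0.435 ± 0.0498 FPKM. The length is that of all annotated exons of a gene together, 9913 bases for RGS5, so a gene with many alternative exons has a low FPKM for its counts.

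**Figure D3:**
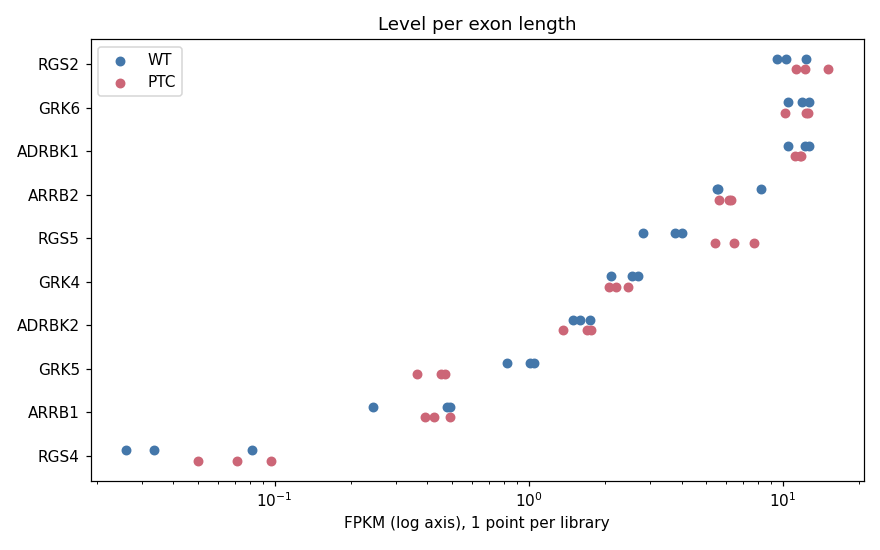
FPKM (fragments scaled to exon length and library size, log axis) of the 10 genes, 1 point per library, WT-labelled in blue and PTC-labelled in red, ordered by the mean of the 6 libraries. Levels run from 11.8 FPKM for RGS2 to 0.0599 for RGS4, and the colours separate for GRK5 and RGS5.

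Several of these genes also differed between replicate numbers. Replicate 1 differed from replicates 2 and 3 with an adjusted p under 0.05 in 5 of the 9 genes (group kept as a term), against 30.8% of all tested genes (14.2% higher and 16.6% lower). RGS5 was lower in replicate 1 by a log2 fold change of -0.42 (95% confidence interval -0.55 to -0.29, adjusted p = 7.25e-05) and ADRBK2 by -0.25 (adjusted p = 0.0349). RGS2 was higher there by 0.34 (interval 0.20 to 0.48, adjusted p = 9.71e-04), ARRB2 by 0.31 (adjusted p = 0.0174) and GRK6 by 0.17 (adjusted p = 0.0257). In RGS5, ADRBK2, RGS2 and GRK6 replicate 1 was the lowest or the highest of both groups, whereas in ARRB2 this held for the WT-labelled libraries, and PTC replicate 1 (26.8 CPM) lay between replicates 2 and 3 (24.7 and 27.3 CPM). GRK5 stood at -0.12 (interval -0.44 to 0.20). DESeq2 called 3 of these genes, RGS5, RGS2 and ARRB2, against 24.9% of the genes to which it gave an adjusted p (9.01% higher and 15.9% lower). Without replicate 1 of both groups, the group difference was -1.33 for GRK5 (adjusted p = 4.13e-04), 0.86 for RGS5 (adjusted p = 1.15e-04) and 0.25 for RGS2 (adjusted p = 0.0814), where 12% of all tested genes were called (6.67% higher and 5.34% lower).

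**Figure D4:**
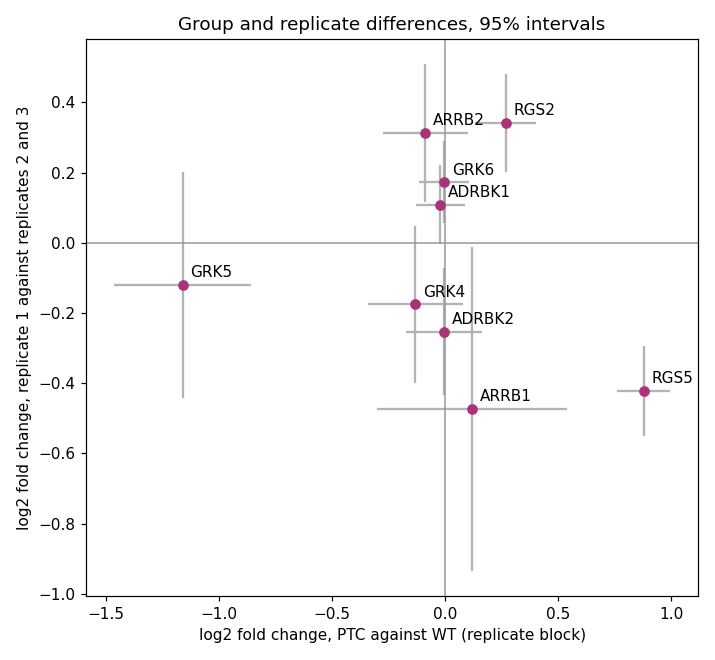
Log2 fold change between replicate 1 and replicates 2 and 3 (vertical) against the log2 fold change between PTC-labelled and WT-labelled libraries with the replicate block (horizontal), 1 point per tested gene with 95% confidence intervals. RGS5 (0.88 and -0.42) and RGS2 (0.27 and 0.34) differ on both axes, GRK5 on the horizontal axis, and ARRB2, GRK6 and ADRBK2 on the vertical axis.

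The tested genes around GRK5 and RGS5 had median differences near 0. The 50 nearest tested genes of GRK5, 25 on each side, had a median log2 fold change of -0.05, with 30 lower and 20 higher in the PTC-labelled libraries and 2 called lower. Those of RGS5 had a median of 0.02, with 31 higher and 19 lower and 1 called higher, and those of RGS2 a median of -0.02. Over the members the medians of the neighbours lay between -0.07 and 0.03. RGS5 shares 5 exon bases with NUF2 on the opposite strand, GRK6 shares 399 with F12, which had 24 to 63 counts, and GRK5 shared exon bases with no other gene of the annotation.

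RGS5 is a mural cell gene in tissue, so a list of 10 mural cell markers was counted beside it. Of these, 7 were tested and none passed on the group alone, the 2 smallest p-values being those of MYH11 (log2 fold change -0.78, adjusted p = 0.0570) and ABCC9 (0.63, adjusted p = 0.127), which point in opposite directions. With the replicate block 3 of the 7 were called, against 22.5% of all tested genes. MYH11 was lower (adjusted p = 0.00416), and ACTA2 (0.40, adjusted p = 4.44e-04) and ABCC9 (0.63, adjusted p = 0.0445) were higher. Their summed level ran from 286 to 373 CPM in the WT-labelled and from 352 to 410 in the PTC-labelled libraries, most of it ACTA2 (208 CPM on average) and KCNJ8 (125 and 115 CPM, log2 fold change -0.12, adjusted p = 0.437). In the WT-labelled and PTC-labelled libraries NOTCH3 was at 16.1 and 16.4 CPM (log2 fold change 0.03) and MCAM at 13.8 and 14.7 CPM (0.09). TAGLN was at 1.48 and 1.99 CPM (0.42, adjusted p = 0.456). The defining pericyte receptor PDGFRB had at most 4 counts in any library, and DES at most 1. CSPG4, another pericyte marker, was too low to be tested, with 3, 2 and 3 counts in the WT-labelled and 11, 10 and 9 in the PTC-labelled libraries. Its groups did not overlap, which held for 23.5% of all tested genes. Of 6 fibroblast markers 2 were tested, and COL3A1 was higher in the PTC-labelled libraries (log2 fold change 1.51, adjusted p = 1.31e-04), at 66.5 against 23.3 CPM. The other tested marker, COL1A1, was at 9.65 against 8.36 CPM (0.21, adjusted p = 0.455), and PDGFRA had 12, 12 and 7 counts in the WT-labelled and 4, 6 and 7 in the PTC-labelled libraries. The sum of the list, 30.6 to 33.4 CPM against 73.7 to 78.1, thus differed mostly through COL3A1. LUM had no count, and COL1A2 and DCN had at most 5. The part of these markers in the RGS5 difference was not tested. None of 6 endothelial markers could be tested (in sum 0.197 to 0.335 CPM in the WT-labelled and 0.509 to 0.648 in the PTC-labelled libraries, with CLDN5 at 0). The blood cell markers PTPRC, CD68 and HBB had no count in any library.

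The genes that act beside the kinases, arrestins and RGS proteins were described from 7 lists with 78 genes. Of these, 45 were tested and 8 were called, against 3.73% of all tested genes, and 20 had at most 3 counts in every library. The median log2 fold change of all tested genes was 0.0009. Among 21 other RGS family and partner genes 10 were tested, with a median of -0.01. RGS7BP, which anchors RGS7-type proteins at the membrane, was lower in the PTC-labelled libraries at 0.299 ± 0.199 CPM against 1.68 ± 0.486 (log2 fold change -2.48, adjusted p = 0.0178). RGS16, a relative of RGS5 that acts on Gi and Gq, was higher at 0.993 ± 0.301 CPM against 0.363 ± 0.0701 (log2 fold change 1.43, adjusted p = 0.0490, SD and n = 3 each for both genes). The most abundant of the other RGS genes, RGS3, stood at 119 and 124 CPM (log2 fold change 0.06). The 4 kinases and arrestins of photoreceptors, GRK1, GRK7, SAG and ARR3, had at most 3 counts in any library.

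Of 16 G protein alpha subunits 13 were tested, with a median log2 fold change of -0.01, and 3 were called. GNAT3, the taste subunit gustducin, was higher in the PTC-labelled libraries (log2 fold change 1.64, adjusted p = 0.00346), and GNAZ of the Gi class (-0.48, adjusted p = 0.0235) and GNAL, a stimulatory subunit (-0.36, adjusted p = 0.0335), were lower. GNAS, the main stimulatory subunit, was at 1074 and 985 CPM (log2 fold change -0.12, adjusted p = 0.442, and 0.0485 with the block). GNAQ, a substrate of RGS2 and RGS5, was at 164 and 126 CPM (-0.37, adjusted p = 0.258, and 2.22e-05 with the replicate block). GNA11, the other widely expressed subunit of the Gq class, was at 147 and 163 CPM (0.14, adjusted p = 0.481), and the block called it higher (adjusted p = 0.0273). None of 4 tested beta subunits passed on the group alone, the smallest p-values being those of GNB4 (-0.60, adjusted p = 0.0788, and 8.33e-04 with the block) and GNB1 (0.27, adjusted p = 0.0878, and 2.76e-04 with the block). Of 6 tested gamma subunits, with a median of -0.21, GNG4 was called lower (-0.59, adjusted p = 0.0317), and with the block also GNG2 (-0.45, adjusted p = 2.77e-05) and GNG11 (-0.24, adjusted p = 0.00720). Of 5 tested arrestin domain genes, which encode relatives of the arrestins, none passed, and 4 had a negative log2 fold change (median -0.15, smallest p-values for ARRDC2 at -0.28, adjusted p = 0.313, and ARRDC4 at -0.15, adjusted p = 0.487). With the block ARRDC4 (adjusted p = 0.0458) and TXNIP (adjusted p = 0.00201) were called lower.

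Of 14 receptors of the adrenal cortex and adrenergic receptors 7 were tested, with a median log2 fold change of 0.06. AGTR1, the angiotensin II receptor that couples to Gq, was higher in the PTC-labelled libraries (29.5 against 18.3 CPM, log2 fold change 0.69, adjusted p = 0.0412). EDNRA, an endothelin receptor, was lower (0.769 against 2.02 CPM, -1.38, adjusted p = 0.0111). MC2R, the ACTH receptor, was at 3.78 and 3.59 CPM (-0.07, adjusted p = 0.891). With the replicate block 17 of the 45 tested genes of the 7 lists were called, against 22.5% of all tested genes. The count of 8 without the block fell to 3 without WT replicate 2, 1 without WT replicate 3, 4 without PTC replicate 1, 2 without PTC replicate 2 and 3 without PTC replicate 3. In the same 5 fits the count over all genes fell from 624 to 278, 219, 430, 247 and 257.

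**Figure D5:**
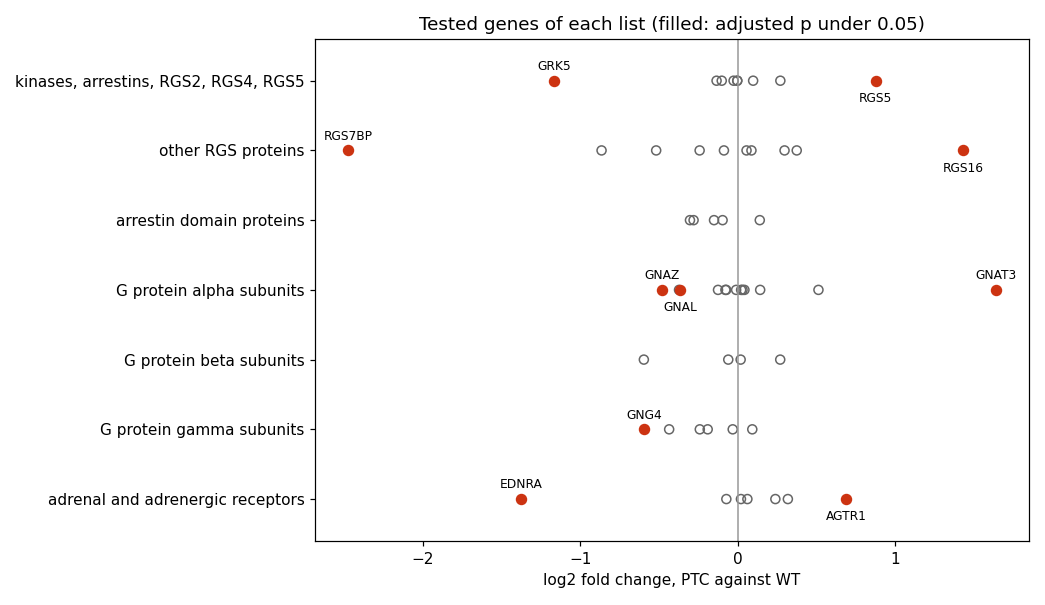
Log2 fold change, PTC-labelled against WT-labelled libraries, of each tested gene (circle) of the kinases, arrestins and RGS genes described first and of the other lists that had tested genes, with filled circles for an adjusted p under 0.05. In the RGS, alpha subunit and receptor lists the called genes lie on both sides of 0, from RGS7BP at -2.48 to GNAT3 at 1.64.

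The genes whose pattern over the 6 libraries was most like that of GRK5 or RGS5 were ranked by the root mean square difference of log2 CPM after centring each gene on its mean. For GRK5 they were ZNF98 (0.107), MSC (0.114), ZNF812 (0.127), ZNF536 (0.131) and AC020571.3 (0.164), against a median of 0.614 over all tested genes. For RGS5 they were DNAH12 (0.0788), CMYA5 (0.118), PRRG4 (0.119), LRRC8C (0.119) and SGCD (0.124), against a median of 0.512. These likenesses rest on 6 points that share the same 2 groups and 3 replicate numbers.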

How the data were processed

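RNA from 3 WT-labelled and 3 PTC-labelled replicates gave paired-end, strand-specific libraries. The methods name an mRNA kit and the labels a total RNA kit with polyA RNA. The authors mapped reads with STAR (2.4.0a in the submitters' processing notes) to hg38, counted fragments per gene name on an Ensembl GRCh38 annotation with featureCounts (reads with several alignments counted once, at the primary one) and deposited raw counts. A row without a gene name held 0% of the counts and was left out.

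Counts were filtered (filterByExpr), scaled (TMM) and tested in edgeR 4.0.16 (R 4.3.3; quasi-likelihood F-test, two-sided, group as the only term, Benjamini-Hochberg adjustment over 16710 genes). CPM and FPKM use TMM-scaled library sizes. A gene was called at an adjusted p under 0.05. The test was tried on simulated counts. Same-numbered replicates pair the groups (deviations from group means correlated at 0.497, 0.307 and 0.228 across genes, against -0.352 to 0.150 for unequal numbers), so a further fit took the replicate number as a block. DESeq2 1.42.0, limma-voom (3.58.1), other scaling and filters and left-out libraries were also tried. Called genes of each list are named, or else the 2 with the smallest p, and the 5 genes most like GRK5 and RGS5. Others, such as STAR, CYP11A1, KCNJ8, CSPG4, NOTCH3, MCAM, TAGLN, TXNIP, GNAS, GNAQ, GNA11, GNG2, RGS3 and MC2R, were named after their values were seen. The genes and lists were chosen with earlier results of these data known. Start site sequences and their motifs come from a set of 35116 RefSeq promoters (GRCh38.p14), in which 8 of the 10 genes were matched. Some genes of the lists are not reported here.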

Additional observations from a re-analysis of the deposited data

How the results depend on the processing

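GRK5 was called in all 13 alternatives (log2 fold change -1.33 to -1.07, largest adjusted p = 0.0311), and RGS5 in 10 of 13, the exceptions being the fits without WT replicate 3, PTC replicate 2 or PTC replicate 3. With the replicate block, 3 of the 10 genes were called (RGS2 added, adjusted p = 0.00599), 17 genes of the other lists in place of 8, and 3758 of all genes in place of 624. Without replicate 1 of both groups these last counts were 15 and 2013, and without a filter on low counts 1111 of all genes. With each library left out in turn, 1 to 2 of the 10 genes, 1 to 8 list genes and 219 to 810 of all genes were called. DESeq2 called 3 genes of the set in place of 5 for replicate 1 against the others (24.9% of all genes against 30.8%). The block changed no other call among the 10 genes. The small differences of uncalled genes changed sign in some fits. With 1 library left out, log2 fold changes ran from -0.0748 to 0.0857 for GRK6, -0.103 to 0.0297 for ADRBK1, -0.0754 to 0.0991 for ADRBK2, -0.159 to 0.250 for ARRB1 and -0.206 to 0.110 for ARRB2. Without replicate 1 of both groups they were 0.00824, 0.0134, 0.0541, -0.135 and 0.0960, and GRK6 stood at 0.000317 when genes needed 10 counts or more in each library. With 1 replicate number left out, the differences in share (percentage points, PTC minus WT) ran from -0.704 to 1.63 for ADRBK1 and -1.14 to 0.257 for GRK4 among kinases, -1.09 to 1.80 for ARRB1 among arrestins and -0.558 to 0.535 for RGS4 against RGS5, and that in summed arrestin FPKM from -0.897 to 0.344. The cause was not tested. RGS4 had 3 to 12 counts per library, too few for the filter.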
